A study of Mus musculus with 46 samples.

Results

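Multipotent germline stem (mGS) cells obtained by knocking down p53 and Dmrt1 together were compared with the germline stem (GS) cells from which such cells are made. The samples were chosen by title, as the 3 lines labelled DmrtmGS (6 arrays, called Dmrt mGS here) and the 3 lines labelled GS cell (6 arrays), which are 12 of the 46 whole-transcript arrays in the series. GS cells are spermatogonial stem cells kept in long-term culture with GDNF and basic FGF, and they are restricted to the male germ line. mGS cells have the growth habit of embryonic stem (ES) cells and form when a GS culture becomes pluripotent. DMRT1 is a transcription factor with a DM domain, a zinc finger module that binds DNA. In the mouse testis it is known to keep spermatogonia from entering meiosis early, to act on both Stra8 and Sohlh1, and, when lost from fetal germ cells on some genetic backgrounds, to permit teratomas.

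The Dmrt mGS lines had been made from GS cells by lentiviral knock-down of p53 and Dmrt1, and the GS lines had no treatment label. Lines of the other induced routes carried p53 knock-down with Dnmt1 knock-down (Dnmt mGS), with Sox2 (Sox2 mGS) or with Oct4 (Oct4 mGS), 3 lines each. Induced pluripotent stem (iPS) cells, also 3 lines, had received Oct4, Sox2, Klf4 and c-myc by retrovirus. All of these groups share the strain label DBA/2 with a GFP transgene. The pluripotent lines grew in serum and LIF and the GS lines in StemPro medium with GDNF and basic FGF, both on mouse embryonic fibroblast feeders, so cell type and medium cannot be told apart. No label says whether the 3 lines of a group came from separate animals or infections, so p-values measure the spread between these lines, which may be technical. Each line had 2 cultures, which were averaged on the log2 scale, and n is 3 lines in each group compared.

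Values are the deposited intensities, a linear measure of probe set brightness. Medians of the 12 arrays lay between 228.0 and 238.0. The 95th percentile of 1027 olfactory receptor genes, taken as genes silent in cultured stem cells, was used as the background level (161.1), and 12749 of 19938 genes had a mean above it. A difference is log2 of Dmrt mGS over the other group, ± the standard error from limma. A gene is said to rise or fall where the Benjamini-Hochberg adjusted p was under 0.05 over all genes. Where the mean of one group lay under background, the fold is a lower bound, the other mean divided by the background level. Means of cultures and of lines are taken on the log2 scale and printed as intensities. In such samples fewer expressing cells and less RNA per cell cannot be told apart.

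The 3 Dmrt mGS lines were not alike. Over the 12749 genes above background, log2 values of Dmrt mGS 1 differed from those of Dmrt mGS 2 and 3 with an SD of 0.68 and 0.62, against 0.16 between Dmrt mGS 2 and 3 and 0.09 to 0.19 between cultures of these lines. More than 2-fold differences separated Dmrt mGS 1 from Dmrt mGS 2 at 1185 genes, and Dmrt mGS 2 from Dmrt mGS 3 at 3 genes. The line nearest to Dmrt mGS 1 in the series was the one labelled Dnmt mGS 2, with an SD of 0.20 and 7 genes over 2-fold. Dnmt1, the maintenance DNA methyltransferase and the target of the Dnmt route, had 2772, 2237 and 2336 in Dmrt mGS and 620, 2752 and 647 in Dnmt mGS, so the line labelled Dnmt mGS 2 held it at the level of Dmrt mGS. The variance of the difference between Dmrt mGS 1 and the line labelled Dnmt mGS 2 was 2.28 times that expected from their cultures, against 3.90 times for Dmrt mGS 2 and 3. Among GS lines, GS 2 and GS 3 were close (SD 0.19, 1.85 times the culture variance) and GS 1 stood apart (SD 0.41 from GS 2 and 0.43 from GS 3). A mix-up of labels and a shared origin of Dmrt mGS 1 and the line labelled Dnmt mGS 2 cannot be told apart here, so group values of Dmrt mGS rest on the labels. Without Dmrt mGS 1, 3427 genes rose and 5014 fell against GS.

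**Figure D1:**
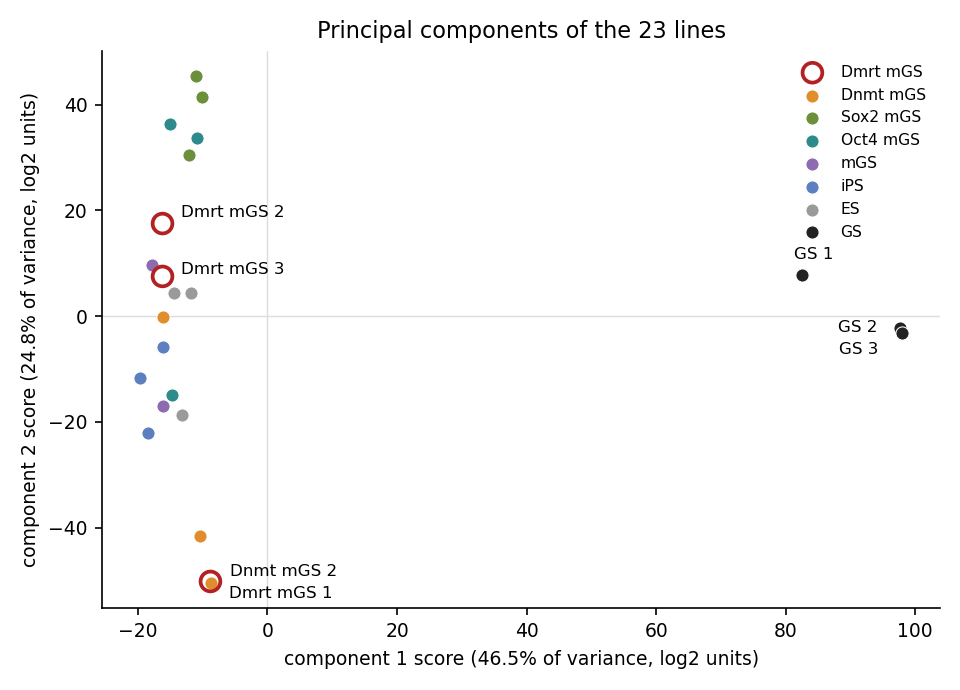
Principal components of the 23 line means over genes above background, with component 1 on the x axis (46.5% of the variance) and component 2 on the y axis (24.8%). Open red rings are the 3 Dmrt mGS lines: they lie beside the other pluripotent lines on component 1, far from GS, while on component 2 Dmrt mGS 1 (−50.2) lies on the line labelled Dnmt mGS 2 (−50.4), away from Dmrt mGS 2 (17.5) and Dmrt mGS 3 (7.5).

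Feeder fibroblasts had been removed before lysis by plating on gelatin, and their marker genes differed between the lines. The mean level of 24 feeder and fibroblast genes was 229, 1153 and 976 in Dmrt mGS 1, 2 and 3, against 765, 290 and 255 in GS 1, 2 and 3. Of these 24 genes, 10 were above background in Dmrt mGS 1 and all 24 in Dmrt mGS 2 and 3, against 23, 18 and 14 in the GS lines. Col1a1, a fibrillar collagen chain, had 635, 1823 and 1681 in Dmrt mGS and 1287, 1032 and 737 in GS. The 14 measured markers of testis somatic cells averaged 146, 163 and 171 in Dmrt mGS and 141, 141 and 144 in GS. Amh of Sertoli cells (95.8 and 108) and Cyp11a1 (76.3 and 62.9) and Star (146 and 123) of Leydig cells were under background in Dmrt mGS and in GS. Of the Sertoli cell markers above background, the transcription factor gene Wt1 had 146, 1125 and 1179 in Dmrt mGS and 854, 548 and 341 in GS, with Dmrt mGS 1 and GS 3 lowest in their groups as for the feeder genes, and Sox9 had 343, 444 and 420 in Dmrt mGS and 497, 511 and 599 in GS. Neither passed (adjusted p = 0.93 and 0.15). The members that passed were Amhr2, the receptor of that hormone, with 393, 231 and 260 in Dmrt mGS and 147, 143 and 142 in GS (1.00 ± 0.24), and Clu (clusterin), with 237, 388 and 356 in Dmrt mGS and 99.2, 142 and 175 in GS (1.24 ± 0.21).

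Upstream sequences of 3 genes are shown here, taken from RefSeq on mouse build GRCm38.p6 and ending at the base before a listed start. Only windows that held the motif core described next were shown, so a match was a condition for display. Nanog is a central pluripotency gene that rose, and Stra8 and Sohlh1 are genes that mouse DMRT1 is known to repress and to activate. Capitals mark ACANTGT, the core of the motif bound by DM domain factors, where N is any base. The core reads the same on both strands, and its ACAAT form overlaps the letters bound by SOX factors. In Nanog the match lies directly beside octamer letters, in the element known in mouse ES cells as the joint Oct4 and Sox2 site.
Nanog, chr6:122707315-122707564, plus strand: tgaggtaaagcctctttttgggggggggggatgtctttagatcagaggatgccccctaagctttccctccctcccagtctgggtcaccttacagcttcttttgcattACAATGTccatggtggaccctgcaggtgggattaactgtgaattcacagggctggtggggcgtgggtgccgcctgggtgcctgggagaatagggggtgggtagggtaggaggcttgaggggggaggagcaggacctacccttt
Stra8, chr6:34920698-34920947, plus strand: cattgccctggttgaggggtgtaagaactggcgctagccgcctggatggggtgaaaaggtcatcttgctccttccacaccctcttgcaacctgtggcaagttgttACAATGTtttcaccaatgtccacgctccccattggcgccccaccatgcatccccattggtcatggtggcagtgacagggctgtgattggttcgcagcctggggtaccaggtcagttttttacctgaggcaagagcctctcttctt
Sohlh1, chr2:25847249-25847498, minus strand: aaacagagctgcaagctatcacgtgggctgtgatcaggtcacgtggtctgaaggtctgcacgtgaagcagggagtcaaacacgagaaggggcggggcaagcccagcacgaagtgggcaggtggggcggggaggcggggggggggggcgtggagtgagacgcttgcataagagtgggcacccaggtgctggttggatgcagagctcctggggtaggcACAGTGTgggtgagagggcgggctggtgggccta
The core begins 143 bases before the start shown in Nanog, 145 in Stra8 and 34 in Sohlh1. For another listed start of Nanog, the same core begins 67 bases before it. In windows of this length, 7.43% of 27025 genes with a listed promoter held it before at least one listed start. Among genes that rose in Dmrt mGS against GS the share was 5.17% of 2768, among genes that fell 5.01% of 3853 and among genes not called 6.28% of 8993. Of the 24 genes with the highest or lowest differences named below, 20 had a listed promoter and 1 held the core. A match is a run of letters and not a binding site.

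Dmrt1 itself was read before other genes. It had 197 and 186 in the cultures of Dmrt mGS 1, 435 and 393 in those of Dmrt mGS 2 and 571 and 537 in those of Dmrt mGS 3. In GS it had 4395 and 4051, 3168 and 3649, and 3245 and 3517. No culture overlapped, and Dmrt1 fell by 3.37 ± 0.42 on the log2 scale (means of 352 in Dmrt mGS and 3646 in GS, adjusted p = 3.7e-06). The line with the lowest Dmrt1, Dmrt mGS 1, was also the one with the lowest feeder gene level, and the part of feeder RNA in this order was not tested. Dmrt1 was low in the other pluripotent lines as well, at 151 to 665 over the 17 lines that are neither Dmrt mGS nor GS. The differences of Dmrt mGS from the other induced routes (0.36 ± 0.35, adjusted p = 0.8) and from iPS (0.09 ± 0.42, adjusted p = 0.92) did not pass. Knock-down and loss of the germ cell state cannot be told apart at this gene. The p53 gene, Trp53, was not analysed here.

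In all, 3506 genes rose and 4797 fell in Dmrt mGS against GS, which is 17.6% and 24.1% of the 19938 tested, and the median over all genes was −0.07. At an unadjusted p under 0.05 there were 9616. Lines of the groups did not overlap at 7810 of the 8303 called genes, where 48.3% of all genes had lines that did not overlap. The change was over 4-fold at 422 genes that rose and 315 that fell.

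**Figure D2:**
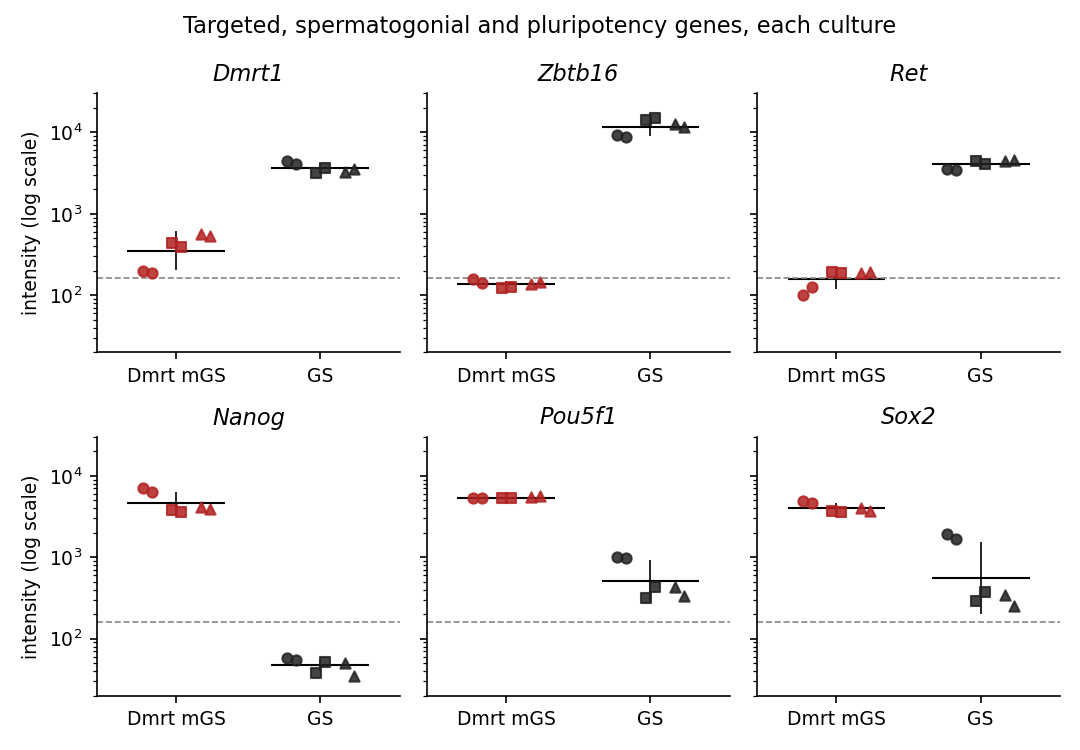
Intensity on a log axis of 6 genes in each culture of Dmrt mGS (left, red) and GS (right, black), with lines 1, 2 and 3 as circles, squares and triangles, group means of lines as horizontal bars, SDs of lines on the log scale as vertical bars and the background level dashed. Dmrt1, Zbtb16 and Ret are lower and Nanog, Pou5f1 and Sox2 higher in every Dmrt mGS culture than in every GS culture.

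Naive pluripotency rests on a network of factors that holds mouse ES cells in an undifferentiated state. Of its 28 measured genes, 21 rose and 0 fell (75% and 0%, beside 17.6% and 24.1% of all genes). The median was 3.05 beside the −0.07 of all genes. Nanog, a homeobox factor at the centre of this network, had 6693, 3711 and 3982 in Dmrt mGS and 56.5, 44.9 and 41.8 in GS (6.61 ± 0.22, adjusted p = 1.3e-13). All 3 GS lines were under background at Nanog, so the rise was at least 28.7-fold. Pou5f1, which encodes Oct4, had 5362, 5367 and 5540 in Dmrt mGS and 1000, 365 and 381 in GS (3.39 ± 0.24, adjusted p = 2.7e-09). Its partner Sox2 had 4772, 3657 and 3868 in Dmrt mGS and 1807, 331 and 293 in GS (2.86 ± 0.45, adjusted p = 5e-05). Both genes were thus above background in GS as well, and GS 1 held the most of each.

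Other network members split by how evenly the 3 lines carried them. Tet1, a DNA demethylating dioxygenase of ES cells, was even, with 5618, 5569 and 6206 in Dmrt mGS and 147, 175 and 102 in GS (5.39 ± 0.16). Dppa2, a chromatin factor of early germ and ES cells, had 4236, 4222 and 4268 in Dmrt mGS against 726, 436 and 420 in GS. Esrrb, an orphan nuclear receptor that sustains self-renewal, had 2407, 830 and 1269 in Dmrt mGS and 96.8, 172 and 119 in GS (3.44 ± 0.72). Prdm14, a repressor of differentiation and of de novo methylation genes, had 876, 188 and 251 in Dmrt mGS and 74.3, 80.4 and 74.4 in GS (2.18 ± 0.60). At Esrrb and Prdm14 all Dmrt mGS lines lay above all GS lines, with Dmrt mGS 1 highest. Tbx3, a T-box factor of the same network, rose by 1.98 ± 0.63 (adjusted p = 0.017), but without GS 3 the adjusted p was 0.053 and without Dmrt mGS 1 it was 0.095.

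The 7 naive genes that did not pass were Zfp42 (639 in Dmrt mGS and 327 in GS), Klf4 (924 and 511), Tfcp2l1 (1178 and 446), Dppa3 (281 and 245), Lin28a (1414 and 1124), Nr5a2 (877 and 1301) and Tcl1 (780 and 832). At Zfp42, Klf4 and Tfcp2l1 all Dmrt mGS lines were above all GS lines, and the adjusted p was 0.15, 0.14 and 0.11. Nr5a2 and Tcl1 were well above background in GS. Lin28a, an RNA-binding protein that blocks let-7 maturation, had 675, 2221 and 1883 in Dmrt mGS and 1187, 1301 and 919 in GS, and without Dmrt mGS 1 it passed (0.86, adjusted p = 0.028).

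The 12 genes with the highest log2 difference of measured intensity, among called genes whose lines did not overlap, held further members of the same state. GS values under background make this order approximate. Tdgf1 (Cripto), a Nodal co-receptor, had 2612, 5802 and 6198 in Dmrt mGS against 48.9, 56.2 and 50.4 in GS (6.46 ± 0.27). Nr0b1 (Dax1), a nuclear receptor that partners Oct4 and Nanog, had 3831, 2588 and 3239 in Dmrt mGS against 43.5, 36.1 and 36.8 in GS (6.36 ± 0.64). Fgf4, the autocrine growth factor of ES cells, had 3972, 2636 and 3212 in Dmrt mGS against 70.1, 103 and 60.7 in GS (5.41 ± 0.36). All 3 genes were under background in every GS line and bright in every Dmrt mGS line. The other genes of this set were L1td1, an RNA-binding protein of LINE-1 origin (1336 and 37.6), Slc7a3, a cationic amino acid transporter, Apela, a secreted peptide of ES cells, Otx2, a homeobox factor of the epiblast, Etl4, Gm6083, 1700019D03Rik and the already named Nanog and Tet1.

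Of 38 measured spermatogonial stem and progenitor genes, 24 fell and 6 rose, with a median of −1.37. The share that fell was 63.2%, beside 24.1% of all genes, and the share that rose 15.8%, beside 17.6%. Zbtb16 (PLZF), a zinc finger repressor that maintains spermatogonial stem cells, had 148, 124 and 142 in Dmrt mGS against 8987, 14611 and 12036 in GS (−6.40 ± 0.13, adjusted p = 1.8e-16). All Dmrt mGS lines were under background there, and the drop was at least 72.3-fold. Nanos3, an RNA-binding protein that protects germ cells, had 177, 151 and 152 in Dmrt mGS and 1841, 2981 and 2772 in GS (−3.96 ± 0.17). Sohlh1, a helix-loop-helix factor of spermatogonial differentiation, had 140, 108 and 124 in Dmrt mGS and 413, 677 and 519 in GS (−2.09 ± 0.15). Its partner Sohlh2 averaged 188 in Dmrt mGS and 2301 in GS (−3.61 ± 0.50). Stra8, the retinoic acid target that opens meiosis, was near background in both groups, with 182, 107 and 128 in Dmrt mGS and 251, 200 and 183 in GS (−0.63 ± 0.17, adjusted p = 0.0073). Without Dmrt mGS 2 the adjusted p of Stra8 was 0.055.

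Further regulators fell by smaller amounts. Foxo1, a factor of stem cell maintenance, averaged 820 in Dmrt mGS and 3468 in GS (−2.08 ± 0.31), Taf4b, a germ cell subunit of TFIID, 892 and 2611 (−1.55 ± 0.09), and Id4, an inhibitor of helix-loop-helix factors that marks stem spermatogonia, 272 and 654 (−1.27 ± 0.28). Neurog3, of progenitor spermatogonia, averaged 84.2 in Dmrt mGS and 704 in GS (−3.06 ± 0.31). Lhx1 and Bcl6b, which GDNF induces in spermatogonial cultures, averaged 96.5 and 222 in Dmrt mGS against 794 and 1953 in GS. Each of these genes was lower in every Dmrt mGS line than in every GS line.

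The 6 members that rose run against the direction of most of the list. Cdh1 (E-cadherin), the epithelial adhesion molecule of ES cells and of some spermatogonia, had 3343, 3486 and 3544 in Dmrt mGS and 337, 249 and 210 in GS (3.73 ± 0.21). Upp1, uridine phosphorylase, averaged 3558 in Dmrt mGS and 438 in GS (3.02 ± 0.27), and Etv5, an ETS factor downstream of FGF and GDNF, 3613 and 1168 (1.63 ± 0.32). Without GS 1, which had 484 of Etv5 where GS 2 and GS 3 had 1864 and 1765, the rise of Etv5 was 0.99. Itga6, an integrin chain used to sort both stem cell types, rose by 0.48 ± 0.14. Kit, the receptor of differentiating spermatogonia, had 1337, 338 and 400 in Dmrt mGS and 301, 225 and 194 in GS (1.26 ± 0.46, adjusted p = 0.036). The call of Kit was lost without Dmrt mGS 1 (0.64, adjusted p = 0.22), without GS 2 (0.087) and without GS 3 (0.12). Thy1 had 404, 2265 and 2023 in Dmrt mGS and 763, 207 and 193 in GS. Within each group the lines stood in the order of the feeder gene mean, which includes Thy1. With the feeder gene level as a covariate in limma, Thy1 rose by 1.23 (adjusted p = 3.7e-05). Its rise of 1.98 ± 0.71 (adjusted p = 0.032) was lost without either of GS 2 and GS 3 and without either of Dmrt mGS 2 and 3 (0.12 to 0.14).

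Genes of germ cell identity, meiosis and the piRNA pathway were lower. Of 47 measured, 39 fell and 0 rose (83% and 0%, beside 24.1% and 17.6% of all genes), with a median of −3.00. Mageb4, a MAGE family gene of the testis, had 84.7, 71.6 and 74.9 in Dmrt mGS and 7527, 10899 and 9403 in GS (−6.90 ± 0.16), and Nxf2, a germ cell member of the mRNA export factor family, 164, 139 and 147 in Dmrt mGS and 16580, 15669 and 12653 in GS (−6.63 ± 0.22). Near-identical copies of both genes may share probes. Among piRNA genes, Asz1, which holds piRNA factors at the mitochondria, averaged 79.6 in Dmrt mGS and 4088 in GS (−5.68 ± 0.35), Tdrd1, a Tudor scaffold, 110 and 3822 (−5.12 ± 0.17), Mov10l1, the helicase that starts piRNA processing, 224 and 4606 (−4.36 ± 0.31), Piwil2, the PIWI protein MILI, 253 and 3864 (−3.93 ± 0.23), and Piwil4, the nuclear PIWI protein MIWI2, 126 and 1453 (−3.52 ± 0.20). None of these 5 genes had a Dmrt mGS line inside the GS range.

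Several meiotic genes expressed in GS fell, and others did not pass. Sycp2, a synaptonemal complex protein, averaged 114 in Dmrt mGS and 2482 in GS (−4.44 ± 0.15), Tex11, a crossover factor, 167 and 3045 (−4.19 ± 0.21), and Spo11, the nuclease that makes meiotic breaks, 71.7 and 596 (−3.06 ± 0.26). Dazl, an RNA-binding protein of germ cells, kept a level well above background in all Dmrt mGS lines, with 1403, 392 and 378 against 16328, 15438 and 15426 in GS (−4.73 ± 0.51). Mael, a nuage protein, was likewise present in both groups at 3396, 2167 and 2461 in Dmrt mGS and 7115, 8153 and 7455 in GS (−1.53 ± 0.35). The 8 genes that did not pass included Hormad1 (1416 in Dmrt mGS and 1194 in GS), Dmc1 (463 and 570), Meioc (818 and 818) and Syce2 (2331 and 2473), all above background in both groups. In Dmrt mGS 1, 8 of the 47 genes were over 2-fold above both other Dmrt mGS lines, beside 1.7% of all genes. They were Dazl, Asz1, Gtsf1, Syce1, Smc1b, Tex12, Tex14 and Slc25a31.

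The 12 genes with the lowest log2 difference, chosen the same way, also held genes outside the lists. Tuba3b, a testis alpha tubulin with close copies, averaged 114 in Dmrt mGS and 8882 in GS, and Foxf1, a forkhead factor of mesoderm, had 226, 217 and 246 in Dmrt mGS against 13029, 12909 and 10975 in GS (−5.74 ± 0.10). Zic1, a zinc finger factor of neural tissue, had 147, 181 and 165 in Dmrt mGS against 8382, 7964 and 11669 in GS (−5.81 ± 0.16). Tex101, a germ cell surface protein and a member of the germ cell list, averaged 103 in Dmrt mGS and 4278 in GS. Usp9y, Gm773, Shcbp1l and Tex13b made up the set, at −5.99, −5.97, −5.37 and −5.27 in that order.

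**Figure D3:**
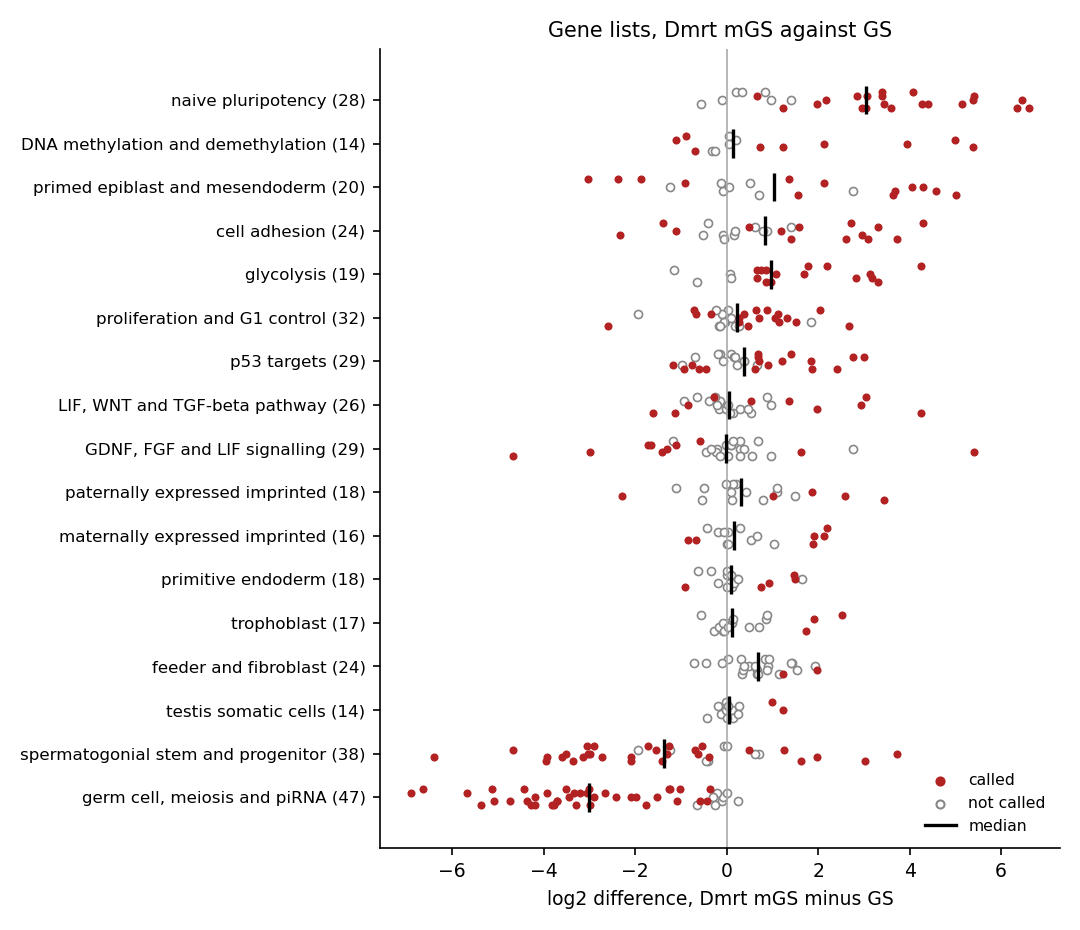
Log2 difference of Dmrt mGS minus GS on the x axis for each measured member of 17 gene lists, with the number measured in parentheses; filled red points passed the adjusted p of 0.05, open points did not and bars are list medians. Medians range from 3.05 for naive pluripotency to −3.00 for germ cell, meiosis and piRNA genes.

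Within the DM domain family, 4 of 8 measured genes fell (50%, beside 24.1% of all genes) and 0 rose. Beside Dmrt1 these were Dmrt2, a factor of somite patterning, with 101 in Dmrt mGS and 224 in GS (−1.15 ± 0.23), Dmrt3, known from spinal interneurons, with 500 and 699 (−0.48 ± 0.08), and Dmrtc1a with 93.0 and 116 (−0.32 ± 0.07), where both means are under background. Dmrtb1 (660 in Dmrt mGS and 731 in GS, adjusted p = 0.18) and Dmrta2 (431 and 435, adjusted p = 0.91) did not pass. Dmrtc2, which acts in meiotic prophase, had 427, 151 and 184 in Dmrt mGS and 479, 418 and 312 in GS (−0.80 ± 0.43, adjusted p = 0.15). No family member passed in the other direction.

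Known p53 targets were read because each Dmrt mGS line carried the p53 knock-down. Of 29 measured, 12 rose, 5 fell and 12 did not pass, and the median was 0.37. The shares that rose and fell were 41.4% and 17.2%, beside 17.6% and 24.1% of all genes. The genes that rose included Psrc1, a spindle protein, with 917, 1888 and 2053 in Dmrt mGS and 280, 157 and 159 in GS (3.00 ± 0.36), Zmat3, an RNA-binding protein, with 558, 923 and 967 against 176, 98.4 and 93.5 (2.76 ± 0.28), Eda2r, a death receptor of the TNF family, with 368, 743 and 864 against 172, 92.7 and 98.4 (2.41 ± 0.42), and Sesn2, a stress-induced inhibitor of mTORC1, with 1382, 1406 and 1291 against 495, 306 and 360 (1.84 ± 0.19). The genes that fell were Xpc (300 in Dmrt mGS and 683 in GS, −1.18 ± 0.12) and Ddb2 (283 and 433, −0.61 ± 0.23), which recognise DNA damage, Mdm2, the ubiquitin ligase that degrades p53 (1394 and 2674, −0.94 ± 0.26), Sesn1 (511 and 861, −0.75 ± 0.19) and Ckap2 (999 and 1354, −0.44 ± 0.16). Ddb2 lost its call without any single line except Dmrt mGS 1 (adjusted p = 0.052 to 0.15), and Ckap2 without Dmrt mGS 1, GS 1 or GS 3 (0.16, 0.097 and 0.062). Rises and falls numbered 8 and 5 without Dmrt mGS 3, 8 and 4 without GS 2, 10 and 3 without GS 3 and 13 and 3 without GS 1. Among the 29, 8 were over 2-fold lower in Dmrt mGS 1 than in both other Dmrt mGS lines and 0 were over 2-fold higher. Among all genes 3.82% were over 2-fold lower and 1.7% over 2-fold higher. Cdkn1a, Bax and Gdf15 were not analysed here.

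Receptors and responses of the growth factor pathways were separated by medium as well as by cell type. Of 29 GDNF, FGF and LIF genes, 8 fell and 2 rose, with a median of −0.02. The share that fell, 27.6%, was near the 24.1% of all genes, and the share that rose, 6.9%, was below 17.6%. Ret, the signalling receptor of GDNF, had 113, 192 and 190 in Dmrt mGS and 3519, 4280 and 4531 in GS (−4.67 ± 0.18), and its co-receptor Gfra1 had 196, 341 and 278 in Dmrt mGS and 1593, 2070 and 2835 in GS (−2.99 ± 0.25). Members of the LIF pathway differed: the receptor Lifr (778 in Dmrt mGS and 710 in GS, adjusted p = 0.74) and its partner Il6st (1625 and 1322, adjusted p = 0.10) did not pass, whereas the kinase Jak1 (1321 and 4158, −1.65 ± 0.14) and the factor Stat3 (1116 and 2985, −1.42 ± 0.16) fell. Of the immediate early genes, Egr1 averaged 1601 in Dmrt mGS and 3967 in GS (−1.31 ± 0.12).

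Inhibitors that ERK signalling induces as feedback varied by line within both groups. Spry4 had 112, 1452 and 1703 in Dmrt mGS and 398, 1323 and 1360 in GS, and Dusp6, an ERK phosphatase, 257, 1893 and 1862 in Dmrt mGS and 1138, 3170 and 2925 in GS. In each group line 1 was lowest and lines 2 and 3 were alike, and neither gene passed (adjusted p = 0.74 and 0.19). Spry1, Spry2, Dusp4 and Fgf5 did not pass either (adjusted p = 0.055 to 0.52), but without Dmrt mGS 1 they rose by 1.16, 1.68, 0.96 and 3.95 (adjusted p = 0.0007, 0.004, 0.047 and 0.0082), and the list's counts became 6 rises and 8 falls.

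Genes of DNA methylation moved in both directions. Dnmt3l, the cofactor of the de novo enzymes, had 2922, 3806 and 4216 in Dmrt mGS and 134, 140 and 77.9 in GS (4.99 ± 0.29), and Tet2 had 1724, 1380 and 1598 in Dmrt mGS and 149, 93.1 and 74.6 in GS (3.95 ± 0.43). Dnmt3b, a de novo methyltransferase, had 733, 3435 and 2988 in Dmrt mGS and 526, 474 and 366 in GS (2.12 ± 0.52), and Dnmt3a 1016, 2916 and 2662 in Dmrt mGS and 963, 848 and 755 in GS (1.23 ± 0.42). At Dnmt3a and Dnmt3b, Dmrt mGS 2 and 3 were far above the GS lines and Dmrt mGS 1 lay just above their range. The call of Dnmt3a was lost without GS 2, GS 3, Dmrt mGS 2 or Dmrt mGS 3 (adjusted p = 0.061, 0.079, 0.12 and 0.11). Tet3 (282 in Dmrt mGS and 604 in GS), Mbd1 (388 and 719) and Mbd2 (942 and 1525) fell, the last with an adjusted p of 0.051 without GS 1. Dnmt1 averaged 2438 in Dmrt mGS and 3031 in GS and did not pass (−0.31 ± 0.35, adjusted p = 0.50).

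Imprinted genes, expressed from a single parental allele, are marked in the male germ line in a paternal pattern. Of 18 paternally expressed genes 4 rose and 1 fell, and of 16 maternally expressed genes 4 rose and 2 fell, with medians of 0.31 and 0.17. The shares that rose, 22.2% and 25%, were near the 17.6% of all genes, and those that fell, 5.56% and 12.5%, were below the 24.1% of all genes. Peg3, a zinc finger gene, had 3542, 5670 and 5966 in Dmrt mGS and 612, 369 and 409 in GS (3.45 ± 0.32), and Impact, a regulator of translation, 2855, 3584 and 3412 in Dmrt mGS and 829, 459 and 432 in GS (2.58 ± 0.18). On the maternal side, Phlda2, a placental growth regulator, averaged 3309 in Dmrt mGS and 758 in GS (2.13 ± 0.35), and Cdkn1c, a cyclin-dependent kinase inhibitor, 281 and 447 (−0.67 ± 0.15). H19 was not analysed here. Of the paternally expressed genes, 8 of 18 were over 2-fold lower in Dmrt mGS 1 than in both other lines, beside 3.82% of all genes. Several of them are also expressed by fibroblasts, and the part of feeder RNA in this difference was not tested. Nnat had 206, 3779 and 2806 in Dmrt mGS and 593, 571 and 642 in GS, and Peg10 857, 6614 and 7267 in Dmrt mGS and 1693, 1184 and 925 in GS, neither passing (adjusted p = 0.28 and 0.083).

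Lists of early lineages were read next. Of 20 primed epiblast and mesendoderm genes 9 rose and 4 fell (45% and 20%, beside 17.6% and 24.1% of all genes). The median was 1.03. Nodal, the epiblast signal of the TGF-beta family, averaged 1092 in Dmrt mGS and 88.1 in GS (3.63 ± 0.31), and its antagonists Lefty1 and Lefty2 averaged 766 and 496 in Dmrt mGS against 31.8 and 29.8 in GS. Lefty1 was uneven, with 150, 1810 and 1653 in Dmrt mGS. Zic2 (3130 in Dmrt mGS and 242 in GS), Cldn6 (1726 and 88.1) and Otx2 (1128 and 35.1) rose too. Lhx1, Wnt3, Foxa2 and Sox4 fell, of which Sox4 had 89.4, 675 and 590 in Dmrt mGS and lost its call without Dmrt mGS 1 (adjusted p = 0.085). Of 18 primitive endoderm genes 4 rose and 1 fell (22.2% and 5.56%, beside 17.6% and 24.1% of all genes), and the defining factors Gata4 (209 in Dmrt mGS and 194 in GS), Sox17 (96.7 and 82.2) and Sox7 (156 and 154) did not pass. Of 17 trophoblast genes 3 rose (17.6%, as among all genes) and 0 fell, while Cdx2 (126 and 133), Elf5 (97.2 and 97.2) and Eomes (230 and 141) did not pass. Tead4, a factor of the trophoblast that ES cells also express, had 1048, 313 and 352 in Dmrt mGS and 64.8, 100 and 94.5 in GS (2.52 ± 0.49). Of 4 measured genes of the 2-cell-like state 3 rose (75%, beside 17.6% of all genes). Of these, Zfp352 (115 and 76.5) and Tdpoz3 (135 and 41.9) had both means under background. The count was 1 without GS 1, 1 without Dmrt mGS 3 and 2 without Dmrt mGS 2, where Tdpoz3 (adjusted p = 0.053, 0.08 and 0.059) and, but for the last, Zfp352 (0.081 and 0.13) lost their calls.

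Of 19 glycolysis genes 15 rose and 0 fell (78.9% and 0%, beside 17.6% and 24.1% of all genes), with a median of 0.98. Pfkl, a subunit of phosphofructokinase, had 1442, 2316 and 2088 in Dmrt mGS and 185, 79.4 and 68.8 in GS (4.25 ± 0.34), Pgk1, phosphoglycerate kinase, 4545, 5176 and 4970 in Dmrt mGS and 1161, 324 and 319 in GS (3.31 ± 0.32), and Slc2a3, a glucose transporter, 5909, 4623 and 4647 in Dmrt mGS and 937, 595 and 626 in GS (2.83 ± 0.20). Ldha, lactate dehydrogenase, averaged 6538 in Dmrt mGS and 1889 in GS (1.79 ± 0.10). Hk1 (5611 and 5333), Aldoc, Pdk1 and Pfkfb3 did not pass. Without Dmrt mGS 1, Aldoc fell (−1.53, adjusted p = 0.023).

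Cell cycle genes were split, with 14 rises and 4 falls among 32 (43.8% and 12.5%, beside 17.6% and 24.1% of all genes). Rises numbered 10 without GS 1, 10 without GS 3 and 9 with only the groups compared. Ccne1, the G1/S cyclin, had 2955, 3585 and 3808 in Dmrt mGS and 431, 582 and 609 in GS (2.68 ± 0.16), and Rrm2, a subunit of ribonucleotide reductase, averaged 2969 in Dmrt mGS and 723 in GS (2.04 ± 0.19). The retinoblastoma gene Rb1, which restrains G1/S entry, had 303, 451 and 464 in Dmrt mGS and 2376, 2467 and 2399 in GS (−2.60 ± 0.28). Cdkn2a, the locus of p16 and p19ARF, averaged 274 in Dmrt mGS and 449 in GS (−0.71 ± 0.16). Mki67 (2224 and 2507, adjusted p = 0.28) and Mcm2 (3661 and 3628, adjusted p = 0.91), which mark dividing cells, did not pass. Myc had 69.6, 1264 and 1234 in Dmrt mGS and 227, 107 and 96.2 in GS and did not pass (adjusted p = 0.17), whereas without Dmrt mGS 1 it rose by 3.23 (adjusted p = 0.0091). Ccnd2, a cyclin of spermatogonia, had 223, 2792 and 2450 in Dmrt mGS and 3381, 4632 and 5505 in GS (adjusted p = 0.09).

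Of 24 adhesion genes 11 rose and 3 fell (45.8% and 12.5%, beside 17.6% and 24.1% of all genes). The median was 0.84. Beside Cdh1, the claudins Cldn6 (4.29 ± 0.39) and Cldn4 (3.30 ± 0.40) and Jup (plakoglobin, 1.58 ± 0.18) rose, and Ocln (183 in Dmrt mGS and 922 in GS) and Tjp1 (1568 and 3351), both of tight junctions, fell. Gja1 (connexin 43) had 198, 3482 and 3077 in Dmrt mGS and 419, 108 and 99.6 in GS, and its call (2.96 ± 0.92, adjusted p = 0.014) was lost without GS 2, GS 3, Dmrt mGS 2 or Dmrt mGS 3 (adjusted p = 0.059 to 0.087). Of 26 receptors and mediators of the LIF, WNT and TGF-beta pathways 6 rose and 4 fell. These shares, 23.1% and 15.4%, stood beside 17.6% and 24.1% of all genes. Only 2 of the 26 fell without GS 1, without GS 3 or without Dmrt mGS 3. Tcf7l1, the WNT effector that represses the ES cell network, averaged 2200 in Dmrt mGS and 116 in GS (4.25 ± 0.25), Bmp4 1177 and 142 (3.05 ± 0.49), and Bmpr1a 1120 and 2001 (−0.84 ± 0.19). Ctnnb1 (beta-catenin) averaged 4011 in Dmrt mGS and 3954 in GS and did not pass.

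Of the 24 feeder genes 2 rose, Fn1 (fibronectin, 6935 in Dmrt mGS and 2950 in GS, 1.23 ± 0.18) and Thy1, and 0 fell, with a median of 0.68. The share that rose was 8.33%, beside 17.6% of all genes. Without Dmrt mGS 1 there were 7 rises and a median of 1.20, without GS 1 there were 4 and 1.36, and without any other 1 of the 6 lines 1 rise and a median of 0.30 to 0.50. With the feeder gene level of each line as a covariate, the counts of the naive list were 23 rises and 0 falls and those of the germ cell list 0 rises and 38 falls. Without Dmrt mGS 1 they were 21 and 0 for the naive list and 0 and 39 for the germ cell list, and without GS 1 they were 21 and 0 and 0 and 36.

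What set Dmrt mGS 1 apart is given as a description, because it is 1 line. Over all genes 339 were over 2-fold higher in it than in both other Dmrt mGS lines (1.7%) and 761 over 2-fold lower (3.82%). The lower genes held 19 of the 24 feeder genes, among them Tagln (52.3, against 1463 and 1143 in Dmrt mGS 2 and 3), Acta2 (173, against 4604 and 3725) and Cdh11 (115, against 2344 and 1896), which encode contractile and adhesion proteins of fibroblasts. They also held genes of other lists: 8 of 29 GDNF, FGF and LIF genes, 6 of 20 primed epiblast genes and 2 of 28 naive genes, Tdgf1 and Lin28a. The higher genes held 7 of 28 naive genes: Tbx3, Tfcp2l1, Nr5a2, Prdm14, Dppa3, Fbxo15 and Tcl1. Tfcp2l1 had 3191 in Dmrt mGS 1, against 597 and 857 in the other lines, and Tcl1 2467, against 350 and 550. The largest single excess was at Cd3g, a chain of the T cell receptor complex, with 1806 in Dmrt mGS 1, 58.4 and 62.3 in Dmrt mGS 2 and 3 and 1873 in the line labelled Dnmt mGS 2. Spic, an ETS factor known from naive ES cells and macrophages, had 1258 in Dmrt mGS 1, 106 and 97.0 in the other Dmrt mGS lines and 1545 in the line labelled Dnmt mGS 2. Pou5f1 and Tet1 did not follow this split, and the part of feeder RNA in it was not tested.

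**Figure D4:**
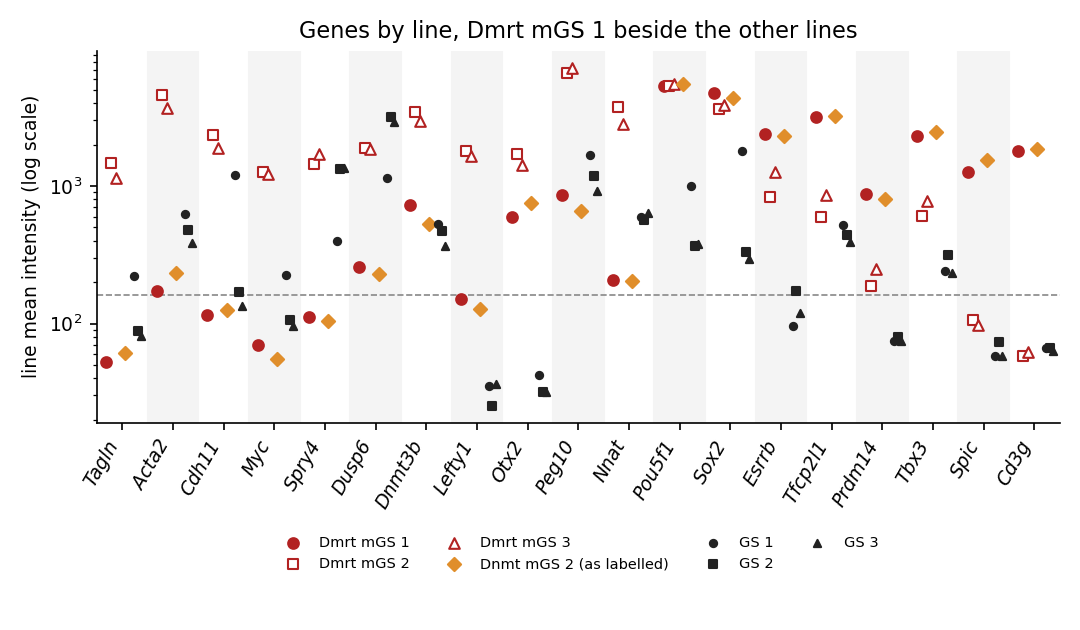
Line mean intensity on a log axis for 19 genes chosen after their values were seen, with Dmrt mGS 1 as filled red circles, Dmrt mGS 2 and 3 as open red squares and triangles, the line labelled Dnmt mGS 2 as orange diamonds, GS lines as small black symbols and the background level dashed. From Tagln to Nnat, Dmrt mGS 1 lies under Dmrt mGS 2 and 3, at Pou5f1 and Sox2 the 3 lines are close, and from Esrrb to Cd3g Dmrt mGS 1 lies above; the line labelled Dnmt mGS 2 lies close to Dmrt mGS 1 at each gene.

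To ask where Dmrt mGS differed from mGS cells of the other induced routes, its 3 lines were set against the equally weighted mean of Dnmt mGS, Sox2 mGS and Oct4 mGS. All routes were made from GS cells, so this is also the difference between their changes from GS. Here 29 genes were higher and 34 lower (0.145% and 0.171% of 19938), and 2058 had an unadjusted p under 0.05. Quantile normalization gave 79 higher and 41 lower. Lines did not overlap at 14 of the 63, and the share over all genes was not counted for this comparison. The counts rested on few lines: without Dmrt mGS 3 they were 2 and 0, without Dmrt mGS 2 they were 4 and 3, without Dmrt mGS 1 they were 11 and 13, and without Oct4 mGS 3 they were 87 and 139. Of all list members, Egr2 and Egr1 (−0.57, adjusted p = 0.017) were lower than in the other routes and none was higher.

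Lgr5, the R-spondin receptor of adult stem cells, had the lowest difference. Lgr5 had 84.0, 157 and 116 in Dmrt mGS, against 151, 88.7 and 114 in Dnmt mGS, then 3248, 2979 and 4562 for Sox2 mGS and 3270, 2612 and 368 for Oct4 mGS (−2.87 ± 0.50 for Dmrt mGS against the mean of the routes, adjusted p = 0.017). Lgr5 in GS was 112, 195 and 169. Lgr5 was thus near background in both knock-down routes and in GS and above it in every line that received Sox2 or Oct4, where Oct4 mGS 3 was lowest. C1qtnf3, a secreted C1q family protein, followed the same order, with 86.0, 139 and 106 in Dmrt mGS, 112, 82.2 and 118 in Dnmt mGS, 994, 833 and 1469 for Sox2 mGS, and 685, 490 and 182 for Oct4 mGS (−1.70 ± 0.29, adjusted p = 0.016). Egr2, an immediate early factor that GDNF induces in spermatogonia, had 131, 344 and 190 in Dmrt mGS, 115, 115 and 127 in Dnmt mGS, 965, 1099 and 1057 for Sox2 mGS, and 641, 624 and 457 for Oct4 mGS (−1.01 ± 0.20, adjusted p = 0.039). Feeder gene levels also differed by route, at 229, 1153 and 976 in Dmrt mGS, 419, 228 and 1446 in Dnmt mGS, 1860, 1415 and 2020 for Sox2 mGS, and 1579, 1228 and 673 for Oct4 mGS. With that level as a covariate, the differences were −2.64 at Lgr5, −1.50 at C1qtnf3 and −0.92 at Egr2 (adjusted p = 0.017, 0.01 and 0.044). With only the groups compared in limma, all 3 genes lost their call (adjusted p = 0.12, 0.14 and 0.17). They also lost it without both Dmrt mGS 1 and the line labelled Dnmt mGS 2 (adjusted p = 0.11, 0.093 and 0.2). At Lgr5 and C1qtnf3 the ranges of Dnmt mGS and Dmrt mGS overlapped, at Egr2 Dmrt mGS lay above Dnmt mGS, and at all 3 genes every Sox2 mGS and Oct4 mGS line lay above both.

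Flot2 (flotillin 2), a membrane raft protein, was the only one of the 8 lowest genes at which the Dmrt mGS lines stood below every line of the other routes, with 679, 686 and 680 in Dmrt mGS, 792, 786 and 885 in Dnmt mGS, 1023, 1162 and 1173 for Sox2 mGS, and 1261, 1102 and 1246 for Oct4 mGS (−0.60 ± 0.10, adjusted p = 0.016). GS lines had 1423, 1487 and 1609. Nsdhl, an enzyme of cholesterol synthesis, averaged 1254 in Dmrt mGS and 2159 over the other routes (−0.78 ± 0.11), and Lpl (lipoprotein lipase, −0.81 ± 0.14), Nuak1, a kinase of the AMPK family (−1.35 ± 0.28), and Eogt, an O-GlcNAc transferase (−0.63 ± 0.13), were lower as well. All of the 8 lowest lost their call without Dmrt mGS 3 (adjusted p = 0.1 to 0.36), all but Egr2 without Dmrt mGS 2 (0.051 to 0.15), and all but Nsdhl and Eogt without Dmrt mGS 1 (0.063 to 0.18). Nuak1, Egr2 and Eogt also lost it without most single lines of the other routes (0.055 to 0.09).

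The 8 highest genes held several transcripts of RNA polymerase III: Rprl1 and Rprl2, related to the RNA of RNase P, and n-R5s136, a 5S ribosomal RNA gene. Rprl1 had 1078, 918 and 1081 in Dmrt mGS, 1203, 1068 and 1049 in Dnmt mGS, 377, 410 and 386 for Sox2 mGS, and 464, 437 and 484 for Oct4 mGS (0.81 ± 0.12, adjusted p = 0.0068). Rprl2 (0.78 ± 0.09, adjusted p = 0.00065) and n-R5s136 (0.82 ± 0.14, adjusted p = 0.016) showed the same order of routes, as did AY036118 (0.88 ± 0.12) and Gm10874 (0.86 ± 0.10). GS lines had 1547, 1127 and 909 of Rprl1, which spans the Dmrt mGS range. Copies of these RNAs are many and may share probes. Twf2 (twinfilin 2), an actin-binding protein, had 1744, 2052 and 2345 in Dmrt mGS, 1410, 1494 and 1835 in Dnmt mGS, 1110, 621 and 764 for Sox2 mGS, and 1013, 712 and 1330 for Oct4 mGS (0.92 ± 0.17, adjusted p = 0.021). Hrnr (hornerin) was higher by 0.73 ± 0.14 and Adam4 by 0.79 ± 0.14. Gm10874 and Rprl2 passed without any single line, and the other 6 lost their call without Dmrt mGS 3 (adjusted p = 0.1 to 0.26). Twf2, AY036118, Adam4 and Hrnr also lost it without Dmrt mGS 2 (0.051 to 0.086), n-R5s136, Adam4 and Hrnr without Dmrt mGS 1 (0.086 to 0.12), and Hrnr without 5 single lines of the other routes (0.054 to 0.058).

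**Figure D5:**
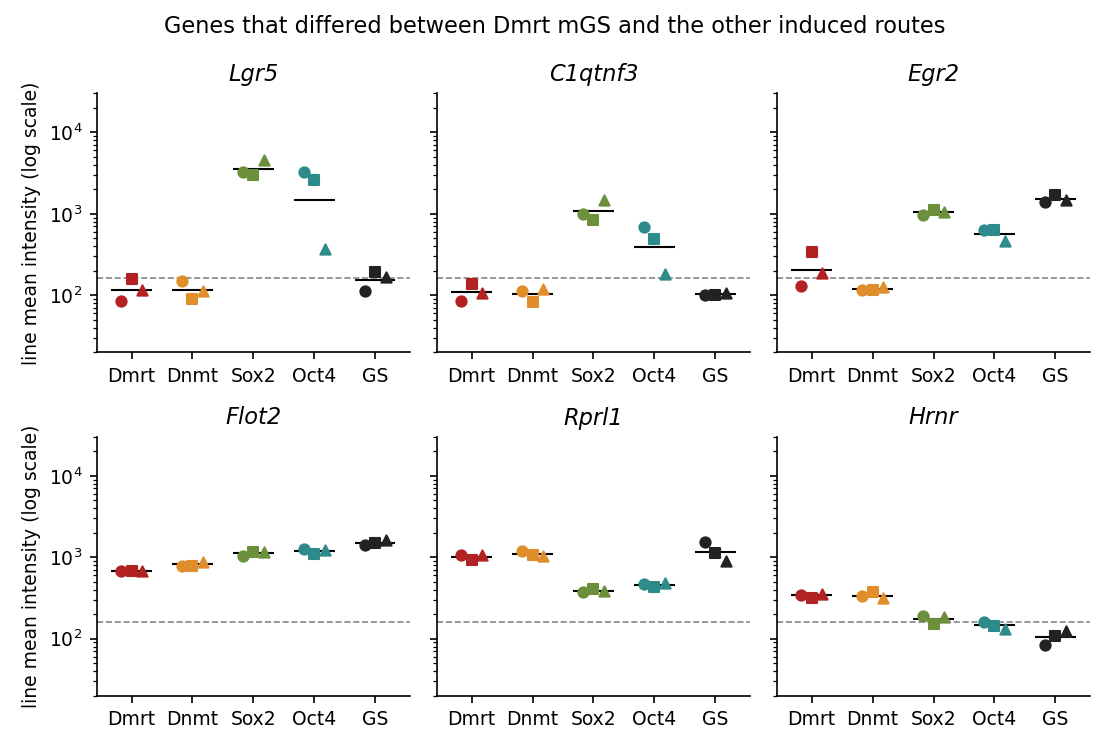
Line mean intensity on a log axis of 6 genes in Dmrt mGS, Dnmt mGS, Sox2 mGS, Oct4 mGS and GS, with lines 1, 2 and 3 as circles, squares and triangles, group means as bars and the background level dashed. Dmrt mGS and Dnmt mGS lie on the same side of Sox2 mGS and Oct4 mGS at Lgr5, C1qtnf3, Egr2, Rprl1 and Hrnr, while at Flot2 Dmrt mGS is lowest.

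Against iPS cells of the same strain label, which asks how far Dmrt mGS stands from cells made pluripotent by factors, 71 genes were higher and 98 lower (0.356% and 0.492% of 19938), and 3804 had an unadjusted p under 0.05. Lines did not overlap at any of the 169. The share over all genes was not counted here either, so this number is not read further. Scaling moved the balance, to 71 and 157 with quantile normalization and 33 and 318 with arrays centred on their medians. Without iPS 1 the counts were 2 and 15 and without iPS 2 they were 4 and 21. No naive pluripotency gene passed, and the differences of Nanog, Pou5f1 and Sox2 were −0.21 ± 0.22, 0.14 ± 0.24 and −0.09 ± 0.45. The feeder genes averaged 229, 1153 and 976 in Dmrt mGS and 333, 391 and 459 in the iPS lines.

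Mid1, an X-linked ubiquitin ligase of microtubules, had 159, 446 and 325 in Dmrt mGS and 3671, 3655 and 4143 in iPS (−3.74 ± 0.49, adjusted p = 0.0016). GS lines had 222, 81.1 and 289, so Dmrt mGS lay nearer to GS than to iPS at this gene. AU015836 had 101, 176 and 209 in Dmrt mGS and 992, 699 and 1185 in iPS (−2.59 ± 0.39). Xrcc5, the Ku80 subunit of DNA end joining, had 833, 677 and 871 in Dmrt mGS and 2470, 2489 and 2281 in iPS (−1.61 ± 0.19, adjusted p = 0.001), and 1139, 1311 and 1244 in GS. Rpl39l, a ribosomal protein gene of germ cells, had 232, 213 and 264 in Dmrt mGS, 980, 676 and 649 in iPS and 1301, 1591 and 1530 in GS (−1.68 ± 0.29 against iPS). Aard, Mir15b, Fgfbp1 and Edn1 completed the 8 lowest, at −2.10 to −1.47.

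Among the 8 highest, Zcwpw1, a reader of histone marks used in meiosis, had 1245, 699 and 698 in Dmrt mGS, 382, 257 and 373 in iPS and 2197, 2038 and 1598 in GS (1.35 ± 0.26 against iPS, adjusted p = 0.018). Gm7265 had 594, 292 and 257 in Dmrt mGS, 103, 129 and 163 in iPS and 424, 375 and 385 in GS (1.45 ± 0.28), and Fam120c 327, 212 and 168 in Dmrt mGS, 87.4, 79.3 and 98.4 in iPS and 235, 291 and 261 in GS (1.37 ± 0.22). At Zcwpw1 every Dmrt mGS line lay between iPS and GS, while at Gm7265 and Fam120c Dmrt mGS 1 lay above both and Dmrt mGS 2 and 3 between them. Chac1, a glutathione-degrading enzyme of the stress response, had 1078, 1760 and 1654 in Dmrt mGS, 560, 594 and 678 in iPS and 164, 151 and 147 in GS (1.27 ± 0.23 against iPS). Tns1, D130040H23Rik, Alox5ap and Nrros were higher by 0.93, 0.92, 0.90 and 0.88. Of the 8 highest, all but D130040H23Rik lost their call without iPS 1 (adjusted p = 0.051 to 0.14) and without iPS 2 (0.055 to 0.19), and Gm7265, Zcwpw1, Tns1, Alox5ap and Nrros without Dmrt mGS 1 (0.072 to 0.14). Of the 8 lowest, Mid1, AU015836, Mir15b and Xrcc5 passed without any single line. Aard, Rpl39l, Fgfbp1 and Edn1 lost their call without iPS 1 (0.051 to 0.11). With only the groups compared in limma, 14 of the 16 named genes lost their call. Mid1, AU015836 and Mir15b were among them (adjusted p = 0.052, 0.082 and 0.051).

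MicroRNA genes were read by probe sets on their precursors or hosts, so mature miRNA levels were not measured. Of 296 measured, 17 rose and 41 fell in Dmrt mGS against GS (5.74% and 13.9%, below the 17.6% and 24.1% of all genes), and of these 8 and 20 had a group mean above background. Mature sequences from RefSeq (GRCm38.p6) are shown for the genes named next, with the seed, bases 2 to 8, in capitals; no seed is shared among the 4.
miR-465a-5p, chrX:66839099-66839121, minus strand: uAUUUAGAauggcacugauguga
miR-470-5p, chrX:66813995-66814017, minus strand: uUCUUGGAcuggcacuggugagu
miR-98-5p, chrX:151913229-151913250, plus strand: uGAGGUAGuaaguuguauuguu
miR-19b-3p, chr14:115044358-115044380, plus strand: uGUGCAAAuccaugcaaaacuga
Mir465 and Mir470, of an X-linked cluster expressed in testis, had 28.2, 21.2 and 21.8 and 73.2, 57.0 and 57.6 in Dmrt mGS, against 249, 149 and 147 and 258, 178 and 179 in GS (−2.90 ± 0.21 and −1.70 ± 0.16). Mir98, whose seed is that of the let-7 family, had 183, 116 and 113 in Dmrt mGS and 242, 278 and 267 in GS (−0.97 ± 0.24, adjusted p = 0.0029). Mir19b-1, of a growth-promoting miRNA cluster, had 155, 192 and 222 in Dmrt mGS and 122, 92.3 and 91.4 in GS (0.89 ± 0.24, adjusted p = 0.0056).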

How the data were processed

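The deposited table held linear intensities of 28856 probe sets on 46 arrays (values 16.0 to 27420, array medians 215.4 to 264.8). The scaling by the authors of these deposited intensities was not stated in the labels or headers used here; a mouse build, mm9, is named per the submitters' processing notes. Probe sets with 1 gene symbol (21789 of them) were kept, those with several (1621) or none (5446) were left out, and for 999 genes the brightest probe set was used, which left 19938 genes. Trp53, Cdkn1a, Bax, Gdf15 and H19 were not analysed here.

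Log2 values of the 2 cultures of each line were averaged, and limma 3.58.1 (R 4.3.3) was fitted to the 23 line means with 1 mean per group, which share 1 estimate of the spread. P-values were adjusted by Benjamini-Hochberg over all genes. The number of arrays limits the precision. Genes were named by rule: the targets of the routes, the 12 highest and 12 lowest called genes without overlap against GS, the 8 highest and 8 lowest called genes in the other comparisons, and members of the lists. The members and lists were chosen with earlier results of these data known. Replicate numbers did not pair the lines: deviations of Dmrt mGS and GS lines of the same number correlated at −0.23, −0.16 and −0.18. In simulated data the fit called 59.6% of 1.5-fold and 87.3% of 2-fold changes of Dmrt mGS against GS. Simulated lines were drawn independently, whereas some real lines were close to each other, so these rates may not carry over. Alternatives changed the normalization, the filter, the samples fitted, the block and the lines left out.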

Additional observations from a re-analysis of the deposited data

Results flagged for a closer look

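The 16 genes named against the other induced routes are listed because their change from GS cells differed between Dmrt mGS and the mean of Dnmt mGS, Sox2 mGS and Oct4 mGS in the limma test of that difference. The change was higher in Dmrt mGS by 0.92 at Twf2, 0.88 at AY036118, 0.86 at Gm10874, 0.82 at n-R5s136, 0.81 at Rprl1, 0.79 at Adam4, 0.78 at Rprl2 and 0.73 at Hrnr on the log2 scale. It was lower in Dmrt mGS at Lgr5 (−2.87), C1qtnf3 (−1.70), Nuak1 (−1.35), Egr2 (−1.01), Lpl (−0.81), Nsdhl (−0.78), Eogt (−0.63) and Flot2 (−0.60). Most of these calls rested on few lines. Of the 16, 14 were lost without Dmrt mGS 3, 11 without Dmrt mGS 2 and 9 without Dmrt mGS 1. With only the groups compared 10 were lost, and without both Dmrt mGS 1 and the line labelled Dnmt mGS 2, 11 were lost.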

How the results depend on the processing

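Against GS, counts stayed within 1.5 times under every alternative run, at 2672 to 3851 higher and 3502 to 5163 lower, and at 2963 to 3427 and 3970 to 5163 when 1 line was left out. Against the other routes, higher and lower counts were 79 and 41 with quantile normalization, 6 and 2 with only the groups compared, 122 and 246 with line as a random block, 44 and 64 with the feeder level as a covariate, and 48 higher without culture 1 of Oct4 mGS 1. Leaving out 1 line gave 2 to 87 higher and 0 to 139 lower; in limma the 0 had 1361 genes, both directions together, at an unadjusted p under 0.05. Against iPS, they were 71 and 157 with quantile normalization, 33 and 318 with median centring, 0 and 7 with only the groups compared (3753 at an unadjusted p under 0.05 in limma), 362 and 396 with the random block, 437 and 411 with the feeder covariate, and 2 to 45 and 15 to 61 when 1 line was left out. Settings chosen after seeing the data gave 2672 and 3511 against GS with Dmrt mGS 2 and 3 averaged and GS 2 and 3 averaged, where 37 of 249 calls of named genes were lost (Dnmt3b at an adjusted p of 0.054), rises numbered 7 for p53 targets, 8 for cell cycle genes, 3 for DNA methylation genes and 3 for spermatogonial genes, and the naive and germ cell counts stayed within 1.5 times. They gave 9 and 12 against the routes without Dmrt mGS 1 and the line labelled Dnmt mGS 2, and 19 and 44 against iPS with Dmrt mGS 2 and 3 averaged. The cause of these shifts was not tested.

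The lines share only a number. With line number as a replicate block, counts were 3512 and 4848 against GS, 15 and 12 against the routes and 59 and 62 against iPS; with culture number as a replicate block on all arrays, 3842 and 4755, 122 and 225, and 349 and 389. No call of a named gene changed direction under the alternatives run. Signals under the background level limit what can be read at dim genes.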

Other observations

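Genes on the Y chromosome were read after Usp9y appeared among the largest drops, so they were chosen after their values were seen. Kdm5d, a histone demethylase, had 257, 251 and 193 in Dmrt mGS and 1251, 1498 and 1410 in GS (−2.58 ± 0.39, adjusted p = 3.3e-05), and Uba1y fell by 0.53 on the log2 scale (adjusted p = 0.00063). Uty had 242, 512 and 117 in Dmrt mGS and 477, 609 and 607 in GS, Eif2s3y 371, 733 and 197 in Dmrt mGS and 1022, 739 and 798 in GS, and Zfy1 322, 188 and 48.9 in Dmrt mGS and 277, 285 and 298 in GS. None of Uty, Eif2s3y and Zfy1 passed (adjusted p = 0.31, 0.35 and 0.48), and Dmrt mGS 3 was the lowest Dmrt mGS line at each. Xist had 108, 435 and 342 in Dmrt mGS and 311, 194 and 115 in GS (0.40 ± 0.67, adjusted p = 0.66).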
